A study of Mus musculus with 6 samples.

Results

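The genes of cholesterol synthesis and sterol control numbered 26: 18 enzymes of synthesis, 4 control genes (Srebf1, Srebf2, Insig1 and Insig2), 2 genes of sterol transfer inside the cell (Stard4 and Npc1) and 2 exporters (Abca1 and Abcg1). The genes were taken by symbol from a table of 27179 genes. All 26 were found, and all 26 were among the 15219 genes with enough counts to be tested.

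Cholesterol is made in the endoplasmic reticulum from acetyl-CoA. The early enzymes build mevalonate and turn it into isoprene units, the middle enzymes join these into squalene and close the rings to lanosterol, and the late enzymes trim lanosterol to cholesterol. The messenger RNAs of most of these enzymes are switched on by SREBP-2, the product of Srebf2, when membrane cholesterol is low. The Insig proteins hold the SREBP precursors in the endoplasmic reticulum when sterols are plentiful, and the liver X receptors induce the exporters Abca1 and Abcg1 when oxysterols accumulate. In the mammary gland, fibroblasts share the stroma with fat, a large store of cholesterol.

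RNA was measured in fibroblasts of the pubertal mouse mammary gland, sorted as cells that lacked lineage markers and CD24 and carried Pdgfrα. They were split by the surface protein CD34 into CD34hi and CD34lo cells. The mice were 6 weeks of age, of the strain the labels give as FVB/N, and no allele or treatment is named for either population. There were 3 pools of 2 mice, each pool gave 1 library of either population, and a library therefore averages over 2 animals and over all fibroblasts within the gate. The comparison asks how the sterol genes differ between these populations.

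The 6 libraries held 28764779 to 52402410 counts. Levels are given in CPM, the count as a share of its library scaled to 1e+06 counts, after TMM scaling for library composition. At these depths 3 counts, the limit that a count of 0 allows, correspond to 0.0572 to 0.104 CPM. That limit covers counting error only. Cd34 itself lay between 2490 and 2639 CPM in the CD34hi libraries and between 476 and 793 CPM in the CD34lo libraries, and Pdgfra was present in both at 637 to 922 and 1036 to 1416 CPM. Levels of Cd34 thus followed the labels. As in any bulk sample, fewer cells of a type and less RNA per cell cannot be told apart.

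RefSeq (GRCm38.p6) gave promoter windows of 300 bases, 250 before and 50 after the transcription start, for 20 of the 26 genes. Abcg1, Fdft1, Sqle, Fdps, Npc1 and Stard4 had none. The windows of Hmgcs1 (chr13:119690101-119690400, plus strand), Cyp51 (chr5:4104648-4104947, minus strand), Srebf2 (chr15:82147019-82147318, plus strand), Insig1 (chr5:28071162-28071461, plus strand) and Insig2 (chr1:121332540-121332839, minus strand, the furthest upstream of its 3 windows) are shown because, among the genes with a window, they hold the enzymes with the 2 largest differences and 3 of the 4 control genes. Capitals mark the core of the sterol regulatory element (TCACNCCAC, shortened by its last base in Srebf2) and the NF-Y box CCAAT, read on either strand.
Hmgcs1: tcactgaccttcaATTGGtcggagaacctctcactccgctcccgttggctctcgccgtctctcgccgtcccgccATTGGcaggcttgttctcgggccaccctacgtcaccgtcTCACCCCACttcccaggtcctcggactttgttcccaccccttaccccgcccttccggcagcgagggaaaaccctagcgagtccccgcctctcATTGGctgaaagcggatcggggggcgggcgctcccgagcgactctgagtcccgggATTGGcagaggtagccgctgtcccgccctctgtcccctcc
Cyp51: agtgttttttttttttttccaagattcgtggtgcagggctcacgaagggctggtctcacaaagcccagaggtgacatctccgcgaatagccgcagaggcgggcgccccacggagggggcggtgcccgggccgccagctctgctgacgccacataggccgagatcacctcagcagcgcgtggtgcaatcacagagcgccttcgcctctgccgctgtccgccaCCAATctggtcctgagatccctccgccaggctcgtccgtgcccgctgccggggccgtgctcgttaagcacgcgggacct
Srebf2: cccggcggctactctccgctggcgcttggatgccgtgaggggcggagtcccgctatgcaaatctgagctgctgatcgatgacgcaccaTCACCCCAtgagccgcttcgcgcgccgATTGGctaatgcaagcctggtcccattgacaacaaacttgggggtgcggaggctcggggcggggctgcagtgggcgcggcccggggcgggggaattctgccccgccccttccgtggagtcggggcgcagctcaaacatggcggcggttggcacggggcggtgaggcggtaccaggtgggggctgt
Insig1: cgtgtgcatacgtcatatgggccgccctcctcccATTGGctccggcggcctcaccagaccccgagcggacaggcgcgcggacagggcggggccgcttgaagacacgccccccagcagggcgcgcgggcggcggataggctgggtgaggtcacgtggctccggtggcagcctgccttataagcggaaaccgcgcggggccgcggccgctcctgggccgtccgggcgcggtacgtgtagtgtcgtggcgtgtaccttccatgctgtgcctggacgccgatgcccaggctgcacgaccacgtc
Insig2: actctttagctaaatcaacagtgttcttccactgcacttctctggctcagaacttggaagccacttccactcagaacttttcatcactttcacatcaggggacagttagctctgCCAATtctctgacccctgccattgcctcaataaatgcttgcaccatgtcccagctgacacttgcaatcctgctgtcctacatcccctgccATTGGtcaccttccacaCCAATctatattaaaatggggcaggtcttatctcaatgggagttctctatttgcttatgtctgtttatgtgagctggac

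The core TCACNCCAC stood in 1 of the 20 genes with a window, Hmgcs1, where it began 137 bases before the start. It stood in 1.38% of the tested genes with a window. The shortened core TCACNCCA was searched after the first result was seen, and stood in Hmgcs1, Srebf2 and Msmo1, against 4.46% of the tested genes with a window. CCAAT was present for 18 of the 20 genes, against 42.6% of the tested genes with a window. The GC box GGGCGG was present for 19 of the 20, against 66.8% of the tested genes. All motifs were searched on both strands, and the shortened core overlaps the full core by construction. Of the genes sorted by direction below, CCAAT stood in 5 of 5 genes higher in CD34lo, 4 of 5 higher in CD34hi and 9 of 10 that did not pass. A match is a description of the letters in the window.

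The 26 genes split by direction. With edgeR's quasi-likelihood test and Benjamini-Hochberg adjustment over all tested genes at 0.05, 10 genes were higher in CD34lo fibroblasts, 6 were higher in CD34hi fibroblasts and 10 did not pass. The share of the set past the threshold was 61.5%, against 35.6% of all tested genes. In single directions the background was 16.9% higher in CD34hi and 18.7% higher in CD34lo. The values of the populations did not overlap for 18 of the 26 genes, 11 of them higher in CD34lo and 7 in CD34hi, against 50.1% of all tested genes. The median log2 fold change, CD34hi minus CD34lo, was -0.18 over the set and -0.01 over all tested genes. With the mouse pool as a block, 16 genes again passed, the same 16, against 40.5% of all tested genes.

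The 10 genes higher in CD34lo were Hmgcs1, Idi1, Fdps, Fdft1, Sqle, Cyp51, Srebf2, Insig1, Stard4 and Abcg1. The 6 genes higher in CD34hi were Acat2, Pmvk, Sc5d, Srebf1, Insig2 and Npc1. The largest differences in the set were those of Sqle, Cyp51 and Stard4, at 2.92-, 2.83- and 2.71-fold, and no gene higher in CD34hi reached a fold of 2. When any 1 library was left out, between 9 and 15 of the genes passed, with the fewest without CD34hi pool 2, where 2 of the 6 genes higher in CD34hi and 7 of the 10 higher in CD34lo were left (34.6% of the set, against 25.3% of all genes tested in that fit). Without CD34lo pool 3, 6 of those 10 passed, and 30.9% of all genes tested in that fit passed in either direction. When both libraries of pool 2 were left out, 10 genes passed, 1 of them higher in CD34hi, against 23.4% of all genes tested in that fit. Without both libraries of pool 3, 12 genes passed, against 31.4% of all genes, and Idi1, Fdps, Srebf2 and Npc1 were lost. When both libraries of pool 1 were left out, 7 passed: Hmgcs1, Fdft1, Sqle, Cyp51, Insig1, Insig2 and Stard4. This is 26.9% of the set, against 23% of all genes tested in that fit. These 7 genes passed under each of 19 alternative analyses.

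**Figure D1:**
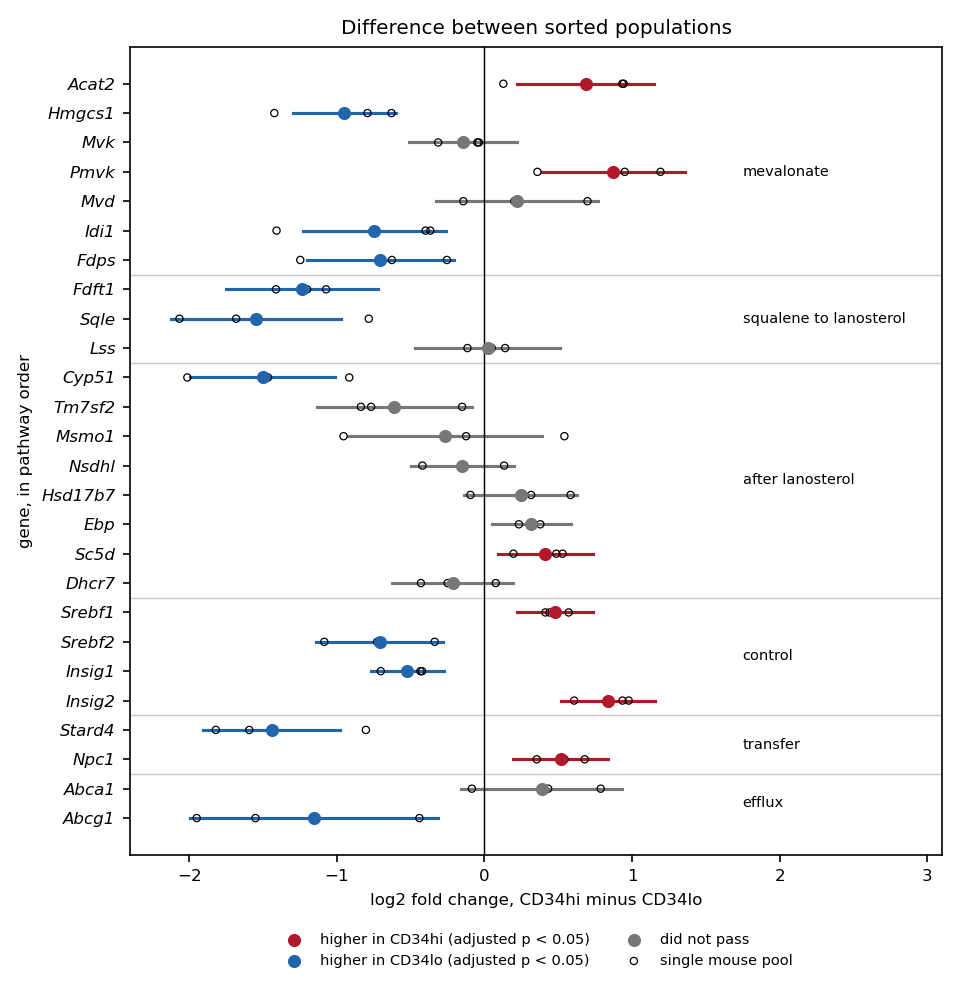
The log2 fold change of each of the 26 genes, CD34hi minus CD34lo, in pathway order from top to bottom. Filled points and bars are the edgeR estimates with 95% confidence intervals, coloured by direction where the adjusted p was under 0.05, and open circles are the differences within single mouse pools; the points of Sqle, Cyp51 and Stard4 lie furthest to the left, and those of Pmvk and Insig2 furthest to the right.

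Among the 18 enzymes of synthesis, 6 were higher in CD34lo, 3 were higher in CD34hi and 9 did not pass. That is 50% called, against 35.6% of all tested genes. Of the 7 enzymes that lead to farnesyl diphosphate, 3 were higher in CD34lo and 2 in CD34hi. Of the 3 from squalene to lanosterol, 2 were higher in CD34lo. Of the 8 after lanosterol, 1 was higher in CD34lo, 1 was higher in CD34hi and 6 did not pass, a share of 25% that lies below the 35.6%.

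The pathway opens with Acat2, the cytosolic thiolase that joins acetyl-CoA units. Its level was 7.60, 7.53 and 5.38 CPM in CD34hi pools 1, 2 and 3, and 3.93, 3.92 and 4.92 CPM in the same pools of CD34lo. The CD34hi libraries were all above the CD34lo libraries, with a log2 fold change of 0.68 ± 0.20 (SE, n = 3 libraries per population, edgeR adjusted p = 0.0289). The difference was close to 0 in pool 3 (0.13 on the log2 scale), and the call was lost without CD34hi pool 1 or 2 or CD34lo pool 1 or 2 (edgeR adjusted p from 0.0715 to 0.109). Acat3, a near-identical neighbour, held 309 counts over all libraries against 1332 for Acat2, so the level of Acat2 is uncertain to the extent that reads were split between them.

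Hmgcs1, the HMG-CoA synthase that follows Acat2 in the pathway, went the other way. It lay at 57.3, 57.5 and 44.3 CPM in CD34hi and at 99.2, 89.0 and 119 CPM in CD34lo. Every CD34lo library was above every CD34hi library, and the fitted CD34lo level was 1.93-fold higher (log2 fold change -0.95 ± 0.15, edgeR adjusted p = 0.00148). Hmgcs1 (chr13:119690462-119708077) was the most highly expressed enzyme of the set per length, at a mean of 23.7 RPKM (the CPM divided by the gene length in kilobases).

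Mvk, mevalonate kinase, differed by less than its error, at 10.0 to 11.6 CPM in CD34hi and 10.4 to 14.4 CPM in CD34lo. Pmvk, the kinase of the next step, was at 9.97, 8.25 and 5.91 CPM in CD34hi and at 4.33, 4.24 and 4.60 CPM in CD34lo. Its CD34lo libraries lay close together and its CD34hi libraries spread out, all above them, and the difference was 1.83-fold (log2 fold change 0.87 ± 0.21, edgeR adjusted p = 0.0122). The call of Pmvk held without any 1 library (edgeR adjusted p up to 0.0486). It was lost without both libraries of pool 1 or of pool 2 (edgeR adjusted p of 0.106 and 0.0898). Mvd, the decarboxylase that follows, overlapped between the populations at 3.20 to 3.91 and 2.16 to 3.54 CPM. The log2 fold change of Mvd had a 95% confidence interval from -0.33 to 0.77, and that of Mvk from -0.51 to 0.22.

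Idi1, the isopentenyl diphosphate isomerase, was higher in CD34lo. It lay at 9.61, 8.91 and 6.97 CPM in CD34hi and at 12.7, 11.5 and 18.6 CPM in CD34lo, with a log2 fold change of -0.75 ± 0.21 (edgeR adjusted p = 0.0245). The difference came largely from pool 3, at -1.41 on the log2 scale, against -0.40 and -0.37 in pools 1 and 2. The call was lost without CD34hi pool 2 or 3 or CD34lo pool 3 (edgeR adjusted p of 0.0623, 0.0694 and 0.0756). Idi2, its close relative, held 1 count in all.

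Fdps, which makes farnesyl diphosphate, was at 7.94, 7.26 and 4.94 CPM in CD34hi and at 12.3, 8.67 and 11.8 CPM in CD34lo. The CD34lo libraries were all higher, the log2 fold change was -0.71 ± 0.22 (edgeR adjusted p = 0.0343), and the call was lost without CD34hi pool 2 or 3 or CD34lo pool 1 or 3 (edgeR adjusted p from 0.0725 to 0.115). In all, 3 of the 5 called genes of this stretch were higher in CD34lo, and the other two, Acat2 and Pmvk, were higher in CD34hi. The summed level of the 7 genes was 80.7 to 108 CPM in CD34hi and 131 to 173 CPM in CD34lo, most of it from Hmgcs1.

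The steps from farnesyl diphosphate to lanosterol held the largest difference of the set. Fdft1, squalene synthase, was at 6.28, 4.61 and 3.99 CPM in CD34hi and at 14.5, 9.75 and 10.7 CPM in CD34lo, a 2.35-fold difference (log2 fold change -1.24 ± 0.23, edgeR adjusted p = 0.00289). The lowest CD34lo library was above the highest CD34hi library, and the difference was alike in the pools, from -1.07 to -1.41 on the log2 scale. The 3-prime end of the Fdft1 span shares 774 bases with Ctsb, a highly expressed lysosomal protease gene on the opposite strand. Ctsb held 244844 counts against 2020 for Fdft1, and the library kit does not keep strand, so the value of Fdft1 is uncertain.

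Sqle, squalene epoxidase, a rate-limiting oxygenase of the pathway, lay at 8.72, 8.69 and 5.89 CPM in CD34hi and at 28.1, 15.0 and 24.8 CPM in CD34lo. Its fitted CD34lo level was 2.92-fold higher (log2 fold change -1.55 ± 0.25, edgeR adjusted p = 0.00164). The gap was narrowest in pool 2, at -0.78 on the log2 scale, and widest in pool 3, at -2.07. Lss, which closes the rings, had the lowest level per length of the set, 0.974 RPKM, and showed no detectable difference at 2.75 to 3.28 CPM in CD34hi and 2.66 to 3.56 CPM in CD34lo (95% confidence interval of the log2 fold change -0.47 to 0.51).

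Cyp51, the sterol 14-demethylase that acts first on lanosterol, followed Sqle. Its level was 24.5, 22.3 and 18.6 CPM in CD34hi and 67.9, 42.1 and 75.2 CPM in CD34lo. The populations were far apart, with a 2.83-fold higher fitted level in CD34lo (log2 fold change -1.50 ± 0.22, edgeR adjusted p = 0.000793). Cyp51 (chr5:4080674-4104697) had the lowest adjusted p among the enzymes, and its difference was again smallest in pool 2 (-0.92) and largest in pool 3 (-2.01).

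The 6 late enzymes that did not pass were Tm7sf2, Msmo1, Nsdhl, Hsd17b7, Ebp and Dhcr7. Tm7sf2, a sterol reductase, did not overlap between the populations, at 2.43 to 3.20 CPM in CD34hi and 3.56 to 5.44 CPM in CD34lo (log2 fold change -0.61 ± 0.23, edgeR adjusted p = 0.0704). It passed without CD34lo pool 2 (edgeR adjusted p = 0.0399). Ebp, the sterol isomerase, did not overlap either, in the other direction, at 22.9 to 26.9 CPM in CD34hi and 19.5 to 20.9 CPM in CD34lo (log2 fold change 0.32 ± 0.12, edgeR adjusted p = 0.0656). It passed without CD34hi pool 3 (edgeR adjusted p = 0.0371).

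The other late enzymes overlapped. Msmo1, a 4-methyl oxidase that works later than Cyp51, was at 8.41, 7.56 and 6.53 CPM in CD34hi and at 9.17, 5.18 and 12.7 CPM in CD34lo. The CD34lo libraries spread from below all CD34hi values to above them. Nsdhl and Hsd17b7, which complete the removal of the methyl groups, lay at 8.47 to 9.77 and 31.3 to 35.8 CPM in CD34hi and at 8.77 to 11.3 and 21.4 to 33.5 CPM in CD34lo. Dhcr7, the last reductase in one branch, was at 8.31 to 10.6 CPM in CD34hi and 8.63 to 12.6 CPM in CD34lo. The 95% confidence intervals of the log2 fold change were -0.93 to 0.39 for Msmo1, -0.50 to 0.20 for Nsdhl, -0.13 to 0.62 for Hsd17b7 and -0.63 to 0.19 for Dhcr7.

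Sc5d, the sterol desaturase, was the single late enzyme called higher in CD34hi. It was at 16.9, 16.1 and 13.1 CPM there and at 12.1, 11.1 and 11.4 CPM in CD34lo, without overlap. Its log2 fold change of 0.41 ± 0.14 stood at the threshold (edgeR adjusted p = 0.0499) and lost the call in 12 of 19 alternative analyses, among them limma-voom and DESeq2 (adjusted p of 0.0608 and 0.0512) and each omission of 1 library other than CD34hi pool 3 (edgeR adjusted p from 0.0633 to 0.159).

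**Figure D2:**
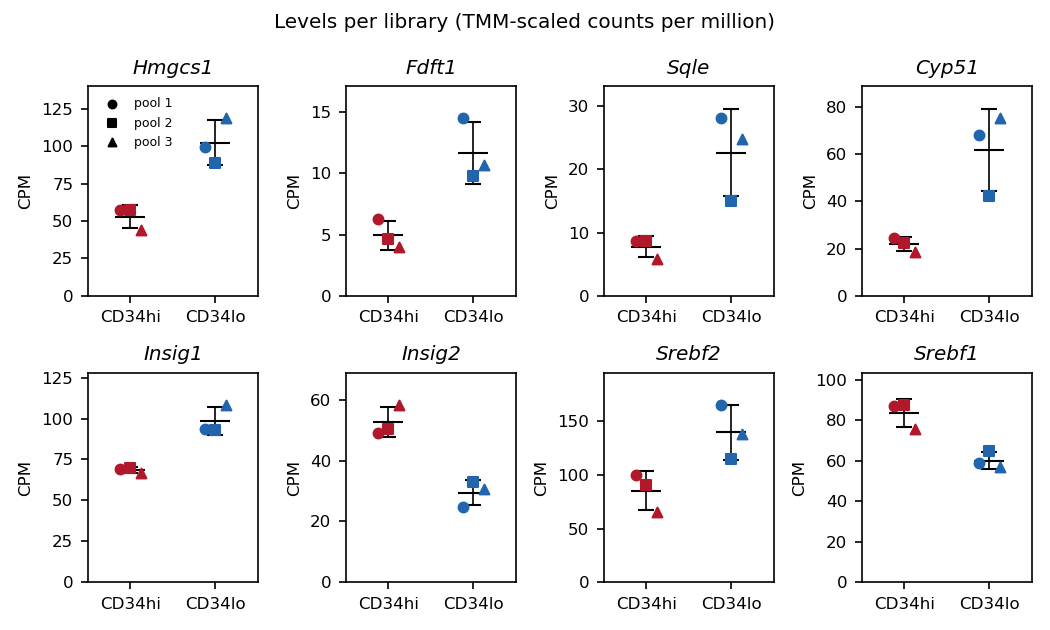
Levels of 8 genes in the 6 libraries, in TMM-scaled CPM on linear axes that start at 0. Symbols mark the mouse pool, horizontal bars the mean and error bars the SD of 3 libraries; Hmgcs1, Fdft1, Sqle, Cyp51, Insig1 and Srebf2 are higher in CD34lo, Insig2 and Srebf1 in CD34hi, and no gene shown overlaps between the populations.

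The control genes all passed, and each family split. Srebf2, which encodes the main activator of cholesterol synthesis, was at 100.015, 90.8 and 65.3 CPM in CD34hi and at 166, 115 and 138 CPM in CD34lo. The CD34lo libraries were all higher, by a fitted 1.64-fold (log2 fold change -0.71 ± 0.19, edgeR adjusted p = 0.0185). Its call was lost without CD34lo pool 1 or 3 (edgeR adjusted p of 0.0748 and 0.0509). The microRNA gene Mir33 lies within Srebf2 and held 10 counts. Other overlaps join Srebf1 with Rai1, Npc1 with Rmc1, Tm7sf2 with Vps51 and Lss with 4930483K19Rik, and reads in these stretches are uncertain as well.

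Srebf1, whose products act mainly on fatty acid genes, was the reverse. It lay at 87.2, 87.8 and 75.7 CPM in CD34hi and at 58.7, 64.6 and 56.9 CPM in CD34lo. The difference was 1.39-fold and alike in the pools, from 0.41 to 0.57 on the log2 scale (log2 fold change 0.48 ± 0.11, edgeR adjusted p = 0.0105). The call was lost without CD34hi pool 2 (edgeR adjusted p = 0.0553).

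Insig1, a sterol sensor partner that is itself a target of SREBP, was at 69.4, 69.6 and 66.7 CPM in CD34hi and at 93.7, 93.3 and 109 CPM in CD34lo. The CD34hi libraries were nearly equal, and all CD34lo libraries were higher (log2 fold change -0.52 ± 0.11, edgeR adjusted p = 0.00557). Insig2, its paralog, which in liver is regulated apart from SREBP, went the other way, at 49.0, 50.4 and 58.4 CPM in CD34hi and 24.9, 33.1 and 30.5 CPM in CD34lo. Its fitted level was 1.79-fold higher in CD34hi (log2 fold change 0.84 ± 0.14, edgeR adjusted p = 0.00176), and it alone of the 6 genes higher in CD34hi passed in all 19 alternatives.

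The shift between paralogs can be read within a library, where depth and scaling cancel. The ratio of Insig2 to Insig1 in RPKM was 0.742, 0.761 and 0.919 in CD34hi and 0.279, 0.372 and 0.295 in CD34lo, with means of 0.807 ± 0.0972 and 0.315 ± 0.050 (SD, n = 3). The ratio of Srebf1 to Srebf2 was 0.926, 1.03 and 1.23 in CD34hi and 0.377, 0.599 and 0.437 in CD34lo, with means of 1.06 ± 0.157 and 0.471 ± 0.115 (SD, n = 3). Both ratios were higher in CD34hi in 3 of 3 pools, by 2.56-fold and 2.26-fold at the mean. The ratios are given as a description, with no test, since the genes of each pair were already known to differ in opposite directions.

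**Figure D3:**
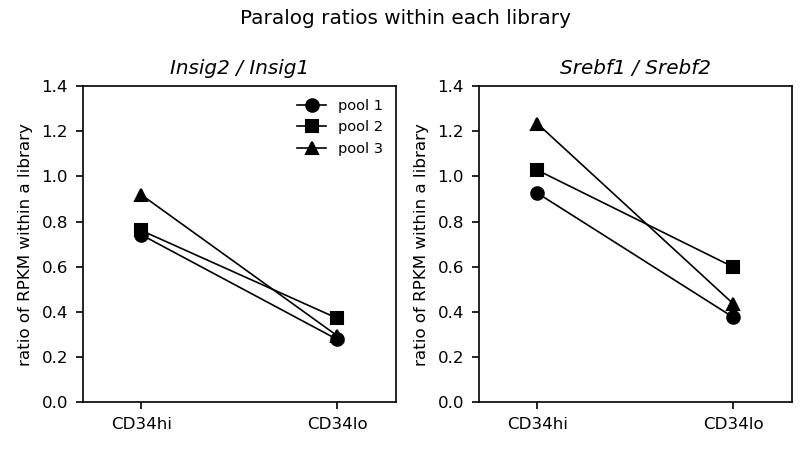
Ratio of RPKM within each library for Insig2 over Insig1 (left) and Srebf1 over Srebf2 (right). Symbols and lines join the CD34hi and CD34lo libraries of a mouse pool; the CD34hi values lie between 0.742 and 0.919 on the left and between 0.926 and 1.23 on the right, above all CD34lo values.

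Stard4, a soluble carrier that moves cholesterol between membranes and is a target of SREBP-2, had the lowest adjusted p of the set. It was at 5.66, 6.51 and 5.18 CPM in CD34hi and at 17.2, 11.4 and 18.4 CPM in CD34lo. The lowest CD34lo library was well above the highest CD34hi library, and the fitted level was 2.71-fold higher in CD34lo (log2 fold change -1.44 ± 0.20, edgeR adjusted p = 0.000733).

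Npc1, which releases cholesterol from lysosomes, was higher in CD34hi, at 59.0, 65.1 and 68.3 CPM against 36.8, 50.9 and 46.9 CPM. The populations did not overlap (log2 fold change 0.52 ± 0.14, edgeR adjusted p = 0.0203). The call was lost without CD34hi pool 2 (edgeR adjusted p = 0.0654) and when both libraries of any 1 pool were left out. Npc2, the soluble lysosomal partner that hands cholesterol to Npc1, was higher in CD34hi as well. It lay at 359, 392 and 572 CPM in CD34hi and at 249, 273 and 243 CPM in CD34lo (log2 fold change 0.79 ± 0.18, edgeR adjusted p = 0.00982).

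The exporters behaved differently. Abca1, which loads cholesterol onto apolipoprotein A-I, had the highest level per length of the set, 41.6 RPKM, and did not pass. It was at 377, 432 and 644 CPM in CD34hi and at 279, 458 and 373 CPM in CD34lo, so the populations overlapped, and the 95% confidence interval of the log2 fold change ran from -0.16 to 0.94. Abcg1, which exports cholesterol to larger lipoproteins, was low at 2.30, 3.81 and 7.54 CPM in CD34hi and at 9.04, 11.3 and 10.3 CPM in CD34lo. Its log2 fold change was -1.16 ± 0.37 (edgeR adjusted p = 0.0385). The spread came from the CD34hi libraries, and the call was lost with each omission of 1 library other than CD34hi pool 3 (edgeR adjusted p from 0.0697 to 0.117). Without CD34hi pool 3 the log2 fold change was -1.73, and with the pool as a block the adjusted p was 0.00379.

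Per length, the set ranged from 41.6 RPKM for Abca1 through 31.5 for Insig1, 24.6 for Srebf2, 23.7 for Hmgcs1, 16.7 for Srebf1 and 16.3 for Insig2 down to 1.76 for Mvd, 1.27 for Abcg1 and 0.974 for Lss, as means over the 6 libraries. All 4 control genes lay above every enzyme but Hmgcs1, which stood above Srebf1 and Insig2. Of the enzymes, Hmgcs1, Ebp (13.1 RPKM) and Cyp51 (9.59 RPKM) stood highest. Within CD34lo, Cyp51 reached 14.2 RPKM and passed Ebp at 11.7 RPKM, and within CD34hi it was at 5.01 RPKM against 14.6 RPKM for Ebp.

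The enzymes also moved together between libraries of the same population. In CD34hi, pool 3 had the lowest level of the 3 libraries for 16 of the 18 enzymes, against 40.5% of all tested genes. In CD34lo, pool 2 was the lowest for 15 of the 18, against 32.9% of all tested genes. The median deviation from the population mean was -0.22 on the log2 CPM scale in CD34hi pool 3 and -0.26 in CD34lo pool 2. The summed level of the 18 enzymes was 257, 248 and 210 CPM in CD34hi and 368, 281 and 385 CPM in CD34lo, so CD34lo pool 2 came closest to the CD34hi range without entering it.

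The differences within pools follow in part from the library order above, and their share over all tested genes was not counted. For the 10 genes higher in CD34lo, pool 2 had the smallest difference in 9 and pool 3 the largest in 9, with medians of -0.997, -0.71 and -1.41 on the log2 scale in pools 1, 2 and 3. For the 6 genes higher in CD34hi, pool 1 had the largest difference in 5 and pool 3 the smallest in 4, with medians of 0.81, 0.57 and 0.39. Without CD34hi pool 3, 15 genes passed, with Ebp added and Idi1 and Fdps lost. Without CD34lo pool 2, 14 genes passed, with Tm7sf2 added and Acat2, Sc5d and Abcg1 lost. These are 57.7% and 53.8% of the set, against 33.9% and 32.9% of all genes tested in those fits.

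**Figure D4:**
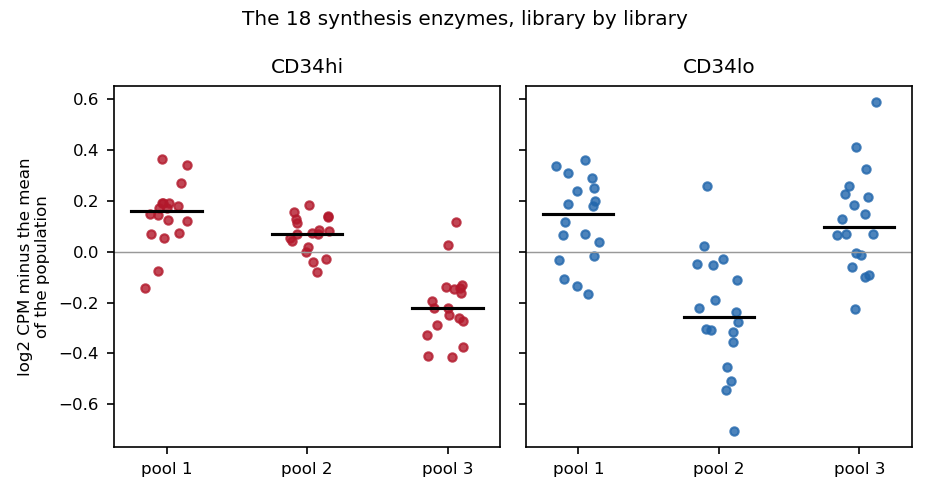
Each of the 18 synthesis enzymes as a point, at its log2 CPM in a library minus its mean over the 3 libraries of the same population, with the median as a black bar. The points of pool 3 in CD34hi (median -0.22) and of pool 2 in CD34lo (median -0.26) lie mostly below 0; horizontal scatter has no meaning.

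Other genes of sterol handling, 40 in number and all tested, were called about as often as all genes. Of these, 6 were higher in CD34hi and 8 in CD34lo (35% called, against 35.6% of all tested genes), and the median log2 fold change was 0.02. With the mouse pool as a block, 7 and 9 of the 40 passed, with Nceh1 and Cyp7b1 added, against 40.5% of all tested genes. Ch25h, which makes 25-hydroxycholesterol, was at 0.984, 1.16 and 0.992 CPM in CD34hi and at 13.0, 7.66 and 8.58 CPM in CD34lo, a 9.37-fold difference (log2 fold change -3.23 ± 0.26, edgeR adjusted p = 3.18e-05). Its product blocks SREBP processing through the Insig proteins and activates liver X receptors.

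Nr1h3, the liver X receptor alpha, was at 11.6, 10.7 and 12.9 CPM in CD34hi and at 33.7, 26.6 and 32.7 CPM in CD34lo (log2 fold change -1.40 ± 0.14, edgeR adjusted p = 0.000105). Nr1h2, liver X receptor beta, had a log2 fold change of 0.01 ± 0.10 and did not pass. Gramd1b, which carries plasma membrane cholesterol to the endoplasmic reticulum, lay at 10.4, 11.5 and 11.3 CPM in CD34hi and at 55.6, 36.3 and 48.4 CPM in CD34lo (log2 fold change -2.08 ± 0.17, edgeR adjusted p = 3.39e-05). Abcg4, an exporter close to Abcg1, had a log2 fold change of -1.65 ± 0.32. Scarb1, Fdxr, Gramd1a and Scap, the escort of the SREBP precursors, were the other genes higher in CD34lo, with log2 fold changes from -1.22 to -0.40.

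Higher in CD34hi were Abca5, a transporter of late endosomes and lysosomes, at 122 to 147 against 45.7 to 65.1 CPM (log2 fold change 1.38 ± 0.16, edgeR adjusted p = 0.000234) and Mylip, the ligase that marks lipoprotein receptors for degradation and a target of liver X receptors, at 143 to 206 against 60.3 to 106 CPM (log2 fold change 1.03 ± 0.22, edgeR adjusted p = 0.00622). Npc2, described above with Npc1, and Osbpl9, an oxysterol-binding protein relative with a log2 fold change of 0.67 ± 0.14, followed. Lbr, the lamin B receptor with sterol reductase activity, was also higher in CD34hi, with a log2 fold change of 0.41. Of the genes described above as liver X receptor targets, Abcg1 was thus higher in CD34lo, Mylip in CD34hi, and Abca1 did not pass. This is not a full list of such targets.

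Fatty acid synthesis, the branch that Srebf1 products act on, gave 3 genes higher in CD34hi, 4 higher in CD34lo and 17 that did not pass, of 24 tested (29.2%, against 35.6%). Acly, which supplies cytosolic acetyl-CoA to both pathways, was at 171, 186 and 182 CPM in CD34hi and at 93.9, 109 and 102 CPM in CD34lo (log2 fold change 0.82 ± 0.11, edgeR adjusted p = 0.000591). Me1, a source of NADPH, and Elovl5, an elongase, were also higher in CD34hi, with log2 fold changes of 1.19 ± 0.18 and 0.59 ± 0.13.

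Higher in CD34lo were Acacb, the mitochondrial acetyl-CoA carboxylase (log2 fold change -1.94 ± 0.37), Mid1ip1, a regulator of acetyl-CoA carboxylase (-1.75 ± 0.15), Agpat2 (-1.10 ± 0.17) and Lpin1 (-1.01 ± 0.15), the last pair being enzymes of glycerolipid assembly. The core enzymes did not pass: Fasn had a log2 fold change of -0.26 ± 0.13, Scd1 of 0.38 ± 0.16 and Scd2 of 0.31 ± 0.14. With the pool as a block 10 of the 24 tested fatty acid genes passed, against 40.5% of all tested genes. Scd1 and Gpam were added to those higher in CD34hi and Acsl3 to those higher in CD34lo.

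**Figure D5:**
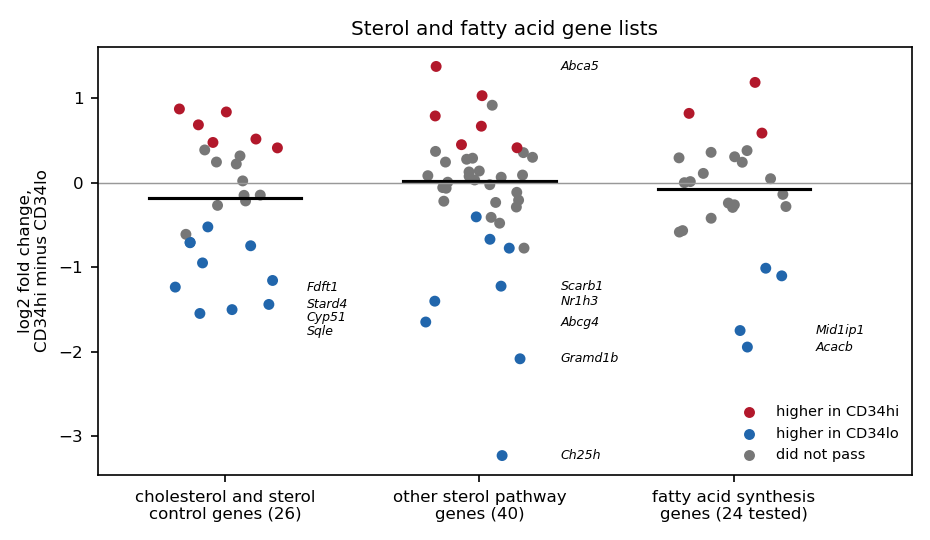
Log2 fold change, CD34hi minus CD34lo, of each gene in the cholesterol and sterol control set, among other sterol genes and among fatty acid synthesis genes, with the median of each list as a black bar. Colours mark genes past the threshold; medians are -0.18, 0.02 and -0.07, and Ch25h at -3.23 is the lowest point.

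Other measured differences moved with the populations. Of 12 genes induced by tissue dissociation, 9 were higher in CD34lo and 0 in CD34hi (75% called, against 35.6% of all tested genes), and their summed level was 23444 to 27917 CPM in CD34hi and 40176 to 54719 CPM in CD34lo. The log2 fold changes of the 9 ran from -2.54 for Hspa1b to -0.78 for Zfp36. Fosb was the most abundant, and CD34lo pool 2 had the highest sum. Hspa1a and Hspa1b were instead lowest in pool 2 among the CD34lo libraries, at 398 and 795 CPM. Of 14 proliferation genes, 4 were higher in CD34lo (Cdk1, Rrm2, Mki67 and Pcna, 28.6% called, against 35.6%), with sums of 73.8 to 79.2 and 103 to 144 CPM. The part of either in the sterol differences was not tested.

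Marker lists of other cells were read in the same way, beside the 35.6% of all tested genes that were called. The 8 leukocyte markers summed to 3.29 to 3.40 CPM in CD34hi and 28.5 to 50.2 CPM in CD34lo. Of the 4 tested, 2 were higher in CD34lo (50% called): Fcgr2b, which made up most of the CD34lo sum at 23.6 to 43.4 CPM, and Lyz2. Ptprc, which defines leukocytes, lay between 0.0221 and 0.360 CPM in all libraries, and Adgre1 was at 0 in 3 of them. Cd68 did not pass but did not overlap, at 1.79 to 2.34 CPM in CD34hi and 2.54 to 4.04 CPM in CD34lo (edgeR adjusted p = 0.0563). C1qa, too low to be tested, was at 0.885, 0.0719 and 1.61 CPM in CD34lo pools 1, 2 and 3. In CD34hi it was at most 0.198 CPM. Fcgr1 and Cd163 overlapped between the populations. The 8 adipocyte markers summed to 0.402 to 1.60 CPM in CD34hi and 0.900 to 2.27 CPM in CD34lo. Of the 2 tested, Plin1 was higher in CD34lo (50% called), and Adipoq, too low to be tested, lay at 0.0643 to 0.369 CPM. Of 5 pericyte markers, 4 were higher in CD34lo (sums 36.8 to 49.1 and 68.9 to 93.2 CPM, Kcnj8 reversed).

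The sums that follow are over whole lists, CD34hi first. Of 6 endothelial markers, with sums of 52.7 to 98.2 and 37.5 to 59.9 CPM, 2 were higher in CD34lo (4 with the mouse pool as a block) and Kdr was higher in CD34hi. With that block 40.5% of all tested genes passed. Of 5 Schwann cell markers, with sums of 42.7 to 52.8 and 22.3 to 28.3 CPM, 3 were higher in CD34lo and Mbp in CD34hi. Of 8 epithelial markers, with sums of 40.5 to 44.5 and 38.4 to 53.5 CPM, Itga6 alone passed, higher in CD34lo. Of 5 keratinocyte markers, 3 of them tested, with sums of 14.6 to 20.1 and 3.85 to 7.44 CPM, Krtdap and Krt10 were higher in CD34hi (66.7% of those tested). Krt1 and Dsg1a were at 0 in all libraries. Of 5 muscle markers, 2 of them tested, with sums of 1.34 to 1.57 and 3.50 to 4.10 CPM, Des was higher in CD34lo (50% of those tested). Of 6 fibroblast markers, 4 were higher in CD34lo and Igfbp5 in CD34hi, with sums of 36774 to 43359 and 48978 to 55285 CPM. The part of these markers in the sterol differences was not tested.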

How the data were processed

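The authors sorted the cells, made poly(A) libraries with a kit that does not keep strand, mapped reads on GRCm38 (mm10) and assigned them to genes with Rsubread. The deposited values are raw counts per gene and library, without a filter; the annotation, the strand setting and the handling of reads with several matches are not given in the sources used here. The gene length is that of the deposited table. Symbols were found for 25275 of 27179 identifiers.

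Tests were run with edgeR 4.0.16 under R 4.3.3: filterByExpr by population (15219 genes kept), TMM factors (0.967 to 1.04), a quasi-likelihood test without a block and Benjamini-Hochberg adjustment at 0.05. Standard errors were derived from the log2 fold change and the F statistic. Differences within pools use log2 CPM with a prior count of 2, and RPKM uses the TMM-scaled CPM. The common coefficient of variation was 19.7%. The study's voom fit with limma (3.58.1 here), DESeq2 1.42.0 and other settings were alternatives. Same-numbered libraries come from the same mouse pool. Their deviations from the population means correlated at 0.279, 0.0844 and 0.243 in pools 1, 2 and 3. No 2 libraries of a population were duplicates (the lowest chi-square statistic over its degrees of freedom was 23.1). Figures used matplotlib 3.10.9.

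The 26 genes and all lists were chosen with earlier results of these data known. The text names all 26 and, from the other sterol and fatty acid lists, the 4 genes with the largest absolute log2 fold change on each side past the threshold with a mean log2 CPM of at least 1. Other genes are named to complete a count or, as Nr1h2, Fasn, Scd1 and Scd2, were chosen after their values were seen. A member of the other sterol list is counted but not reported by name here.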

Additional observations from a re-analysis of the deposited data

How the results depend on the processing

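Of 494 values of single genes (26 genes under 19 alternatives), 433 kept direction and side of the threshold, 49 lost the call, 3 gained it and 9 turned direction. No called gene turned. Mvk became 0.019 on the log2 scale without CD34lo replicate 1, in a range from -0.249 to 0.019 when libraries or pools were left out. Lss became -0.032 with upper-quartile scaling and -0.014 on thinned counts, and ranged from -0.037 to 0.154 over the omissions. Msmo1 ranged from -0.543 to 0.144, and was 0.056 without CD34lo replicate 3 and 0.144 without pool 3.

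Of the 26 genes, 16 passed (6 higher in CD34hi and 10 in CD34lo). At an adjusted p under 0.01, 7 passed (1 and 6), and with a fold of at least 2 either way, 5 did (0 and 5). The share of all tested genes past these stricter cutoffs was not counted, for this set or the lists below. Leaving out a library or a pool gave 7 to 15 (1 to 7 higher in CD34hi and 6 to 10 in CD34lo). That is 26.9% to 57.7% of the set, against 23% to 33.9% of all genes tested in those fits. The same range for all genes applies to the omissions for the lists below. Of the other sterol genes, 14 passed (6 and 8). With a fold of at least 2 either way, 7 did (2 and 5), and leaving out libraries or pools gave 9 to 14 (4 to 5 and 5 to 9). Of the fatty acid genes, 7 passed (3 and 4), with a fold of at least 2 in 1 of those higher in CD34hi. Leaving out libraries or pools gave 6 to 9 (2 to 5 and 4 to 5).

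The replicate block, with pairing by mouse pool, left all 16 calls of the set in edgeR and gave 17 in limma-voom, where Tm7sf2 was added. These are 61.5% and 65.4% of the set, against 40.5% and 42.2% of all tested genes. Fatty acid genes higher in CD34hi numbered 5 with the block in edgeR and in limma-voom, where 12 passed in either direction and 7 were higher in CD34lo. The same shares of all tested genes apply to these counts. Fits that leave out a library keep 2 or 3 libraries a population and test 15076 to 15804 genes. With upper-quartile scaling the median of all genes moved to -0.06 on the log2 scale. With 3 pools, genes near the threshold such as Sc5d cannot be settled.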
